A study of Mus musculus with 6 samples.

Results

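The genes described here are 10 genes of tumour necrosis factor (TNF) and death receptor signalling, taken by gene symbol: Tnf, Tnfsf10, Fas, Tnfrsf10b, Tnfrsf1a, Tnfrsf1b, Tnfaip3, Cd40, Traf1 and Birc3. All 10 were among the 18182 genes listed in the files, and all 10 passed the filter on low counts that left 13353 genes to test. The libraries came from LLC cells (Lewis lung carcinoma, a tumour line of the C57BL/6 mouse) that carry a red fluorescent protein (RFP) and grew under the skin of wild type C57BL/6 mice. In 1 group, LLC alone, the mice received LLC-RFP only. In the other, LLC with BMSCs, they received LLC-RFP mixed with bone marrow-derived mesenchymal stem cells (BMSCs) that were bought and are also of the C57BL/6 strain. RFP-positive cells were sorted from the primary cancer sites by flow cytometry, and each group has 3 RNA sequencing libraries. The comparison asks which RNAs differ in the sorted cells when BMSCs were injected together with the tumour cells. The mice have an intact immune system. The study's methods describe the mice of its tumour growth experiments as female and 6 weeks old, and give no age for the sorting experiment separately. Nothing states that the 3 libraries of a group came from separate animals, so the p-values measure only the spread between these libraries.

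TNF, FAS ligand and TRAIL (encoded by Tnfsf10) are trimeric ligands that bind receptors of the TNF receptor superfamily. Receptors with a death domain, such as FAS, TNFR1 (Tnfrsf1a) and the mouse TRAIL receptor (Tnfrsf10b), can assemble complexes with FADD and caspase-8 that start apoptosis. TNFR1, TNFR2 (Tnfrsf1b) and CD40 also recruit TRAF adaptors and cIAP ubiquitin ligases, which turn on NF-kB. TRAF1, cIAP2 (Birc3) and A20 (Tnfaip3) are themselves products of NF-kB target genes, and A20 switches the signal off.

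In LLC with BMSCs, 8 of the 10 genes were higher, 1 was lower and 1 was not called. Among them, 6 rose with log2 fold changes of 1 or more, namely Tnf, Birc3, Tnfsf10, Traf1, Fas and Tnfaip3. Tnfrsf1b rose by less, and the receptors Tnfrsf1a and Tnfrsf10b moved by under 0.25 on the log2 scale in opposite directions. Cd40, a receptor that activates NF-kB in antigen-presenting cells, was not called. A gene is called where its adjusted p in edgeR's quasi-likelihood test, corrected over all 13353 genes, is under 0.05. Tnf and Tnfsf10 passed the filter on low counts only through the libraries with BMSCs, where they are high. With at least 10 counts required in every library, 8 of the 10 genes remained, 6 higher and 1 lower. The calls were many throughout the genome: 31.5% of all tested genes were called higher, 31.3% were called lower, and 8.65% were called higher with a log2 fold change of 1 or more. The FPKM values of the groups did not overlap for 9 of the 10 genes, and the same was true of 70.6% of all tested genes. The median log2 fold change was 2.48 over the 10 genes, Tnf and Tnfsf10 among them, and 0.0121 over all tested genes. The first median lies between Fas (3.12) and Tnfaip3 (1.85), so it says nothing about how large the rise of Tnf is. The fold changes of genes low in LLC alone depend on the scale: limma on log2(FPKM + 1), which understates changes of low genes, gave 1.15 for Tnf, 1.97 for Fas, 1.90 for Traf1 and 2.36 for Birc3, all called.

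**Figure D1:**
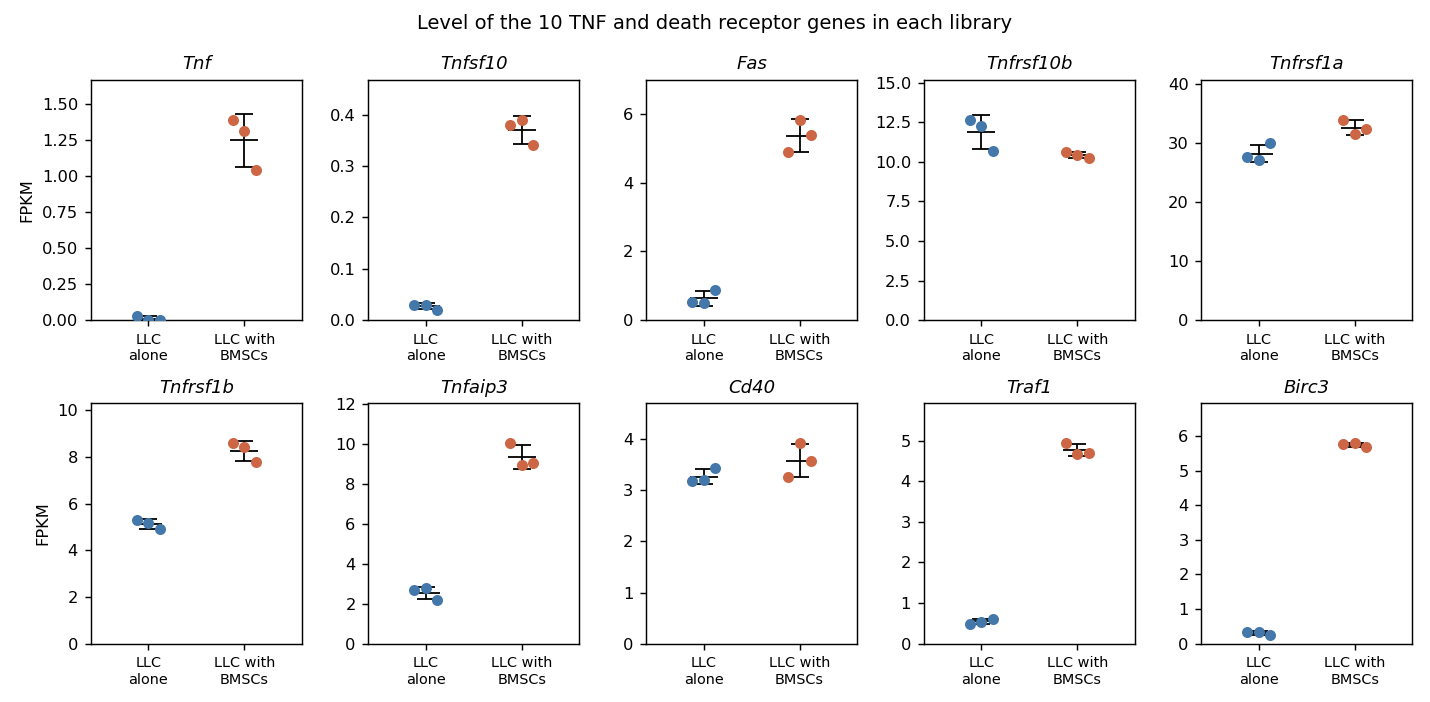
FPKM of the 10 genes in each library, each panel with its own axis from 0; points are the 3 libraries of a group, and bars are the mean ± SD. Tnf, Tnfsf10, Fas, Tnfaip3, Traf1 and Birc3 stand well above LLC alone in all 3 libraries with BMSCs, while Cd40 overlaps between the groups.

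Promoter sequence was available for 8 of the 10 genes, and the upstream bases of 3 of them are shown because they hold a match to 1 of 3 short motifs of factors that act downstream of cytokine receptors. The sequences are RefSeq's for build GRCm38.p6, run 5′ to 3′ on the gene's strand and cover the 250 bases before the annotated start. Capitals mark the motif matches. The submitters' processing notes name build mm8, so these coordinates belong to the reference and not to the files. The Fas promoter is at chr19:34290409-34290658 on the plus strand, that of Tnfrsf1a at chr6:125349473-125349722 on the plus strand and that of Tnfrsf1b at chr4:145246871-145247120 on the minus strand.
Fas: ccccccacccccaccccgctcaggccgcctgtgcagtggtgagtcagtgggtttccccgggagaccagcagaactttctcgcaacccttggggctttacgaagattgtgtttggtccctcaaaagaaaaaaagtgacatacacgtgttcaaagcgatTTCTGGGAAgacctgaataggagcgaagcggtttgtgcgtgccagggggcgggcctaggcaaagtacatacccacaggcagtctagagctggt
Tnfrsf1a: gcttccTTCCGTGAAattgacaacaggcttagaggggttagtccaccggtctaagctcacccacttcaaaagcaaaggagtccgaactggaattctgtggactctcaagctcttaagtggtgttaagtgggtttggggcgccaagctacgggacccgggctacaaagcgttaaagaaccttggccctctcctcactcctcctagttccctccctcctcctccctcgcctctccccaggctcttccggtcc
Tnfrsf1b: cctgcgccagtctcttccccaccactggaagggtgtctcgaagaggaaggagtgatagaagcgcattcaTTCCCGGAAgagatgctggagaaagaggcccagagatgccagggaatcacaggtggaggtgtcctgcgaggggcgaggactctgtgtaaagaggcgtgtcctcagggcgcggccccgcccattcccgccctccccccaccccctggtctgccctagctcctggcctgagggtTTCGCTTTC
The GAS-like motif TTCNNNGAA, the form of site that STAT proteins bind, was found in the promoters of these 3 genes, and its first base lies 93 bases before the start in Fas, 244 bases in Tnfrsf1a and 181 bases in Tnfrsf1b. Over all 32851 promoters of the same length (250 bases before and 50 bases after the start), 8.30% hold it. Tnfrsf1b also holds a match on the opposite strand to the ISRE-like motif GAAANNGAA, the form that interferon-activated factors bind, which begins 9 bases before the start and is found in 8.56% of all promoters. The kappaB-like motif GGGANNTTC was found in the window of Tnf only, after the start and so not printed, and 3.94% of all promoters hold it. Both strands were searched, a match is a description of letters and not a binding site, and these 3 genes span a strong, a moderate and a small difference between the groups. Each motif is a fixed form, searched without mismatches in this short window. Not finding it therefore does not show that a gene lacks such sites.

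Of the libraries, 1 stood apart and some replicates were alike. Total estimated counts ranged from 33476347 to 46189113 per library. LLC alone replicate 3 had short genes higher and long genes lower than the other libraries. This was read as the median deviation of log2 CPM (counts scaled by library size) from the gene's mean. It was 0.313 over the shortest 20% of genes and -0.365 over the longest 20%. Over the shortest genes, LLC alone replicates 1 and 2 had 0.0622 and 0.0371, and the libraries with BMSCs had -0.189, -0.091 and -0.112. The trend over length thus also ran with the groups. LLC alone replicates 1 and 2, and LLC with BMSCs replicates 2 and 3, were much closer to each other than to the third of their group, though they still differed by more than sampling noise. Without LLC alone replicate 3, the calls of the 10 genes were again 8 higher and 1 lower. With any other single library left out, they were 7 higher and 0 lower.

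Cells without RFP should be left out by the sort. Other cells were checked by their markers, and in bulk RNA a change in the number of cells of a type cannot be told apart from a change in RNA per cell. The summed CPM of the 9 neutrophil markers listed was 0.479 to 0.780 in LLC alone and 23 to 26.1 in LLC with BMSCs, and all 8 markers tested were higher. S100a9 and S100a8, the most abundant of them, had a mean of 22.4 ± 2.90 and 20.2 ± 2.2 FPKM (SD, n = 3) in LLC with BMSCs. Mmp8 and Mpo were at 0 in LLC alone. Markers at or near 0 there could pass the filter only through the libraries with BMSCs, so their direction was largely set by the filter. Ly6g was not tested and did not rise, with 0.03 to 0.11 FPKM in LLC alone and 0.03 to 0.08 FPKM with BMSCs. The 12 macrophage markers summed to 24.2 to 29.2 CPM in LLC alone and 36.2 to 38.5 CPM in LLC with BMSCs, with 6 of 8 tested markers higher and 1 lower. The most abundant, Cd14, was not called, and Cd68 was lower with BMSCs. Adgre1 and C1qa were at 0 in LLC alone. With BMSCs, Adgre1 reached 0.42 to 0.56 FPKM, while C1qa stayed at 0.02 to 0.07 FPKM. C1qa, C1qb and Aif1 had at most 3 counts in every library. Stromal markers summed to 365 to 430 CPM in LLC alone and 781 to 833 CPM in LLC with BMSCs, and all 8 tested were higher, led in level by Col3a1 and Eng. Cxcl12 and Thy1 were at 0 in LLC alone and did not exceed 0.1 and 0.03 FPKM with BMSCs.

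T, NK and B cell markers, with Cd8a and Cd79a the most abundant, summed to at most 0.395 CPM in any library, none passed the filter, and Nkg7 was at 0 in LLC alone. Dendritic cell markers, most of them Zbtb46 and Cd74, summed to 16 to 17.4 CPM in LLC alone and 17.1 to 17.3 CPM in LLC with BMSCs, with 3 of 7 tested higher and 2 lower. Endothelial markers (Pecam1 and Vwf the most abundant, Emcn at 0 in LLC alone) summed to at most 1.75 CPM, and neither of the 2 tested was called. As for the label itself, the epithelial keratin Krt8 was at 90.3 to 113.28 FPKM, while Krt18, Epcam and Cdh1 did not exceed 0.69 FPKM in any library and Krt19 was at 0 in LLC alone. The epithelial list summed to 158 to 179 CPM in LLC alone and 188 to 196 CPM in LLC with BMSCs, with both tested genes higher. Of the lung epithelial markers, only Hopx was tested and it was higher, Nkx2-1 did not exceed 0.04 FPKM and Scgb1a1 was at 0 in LLC alone, so the labelled lung origin is not visible in these markers. That list summed to 2.09 to 2.57 CPM in LLC alone and 7.55 to 8.05 CPM in LLC with BMSCs.

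**Figure D2:**
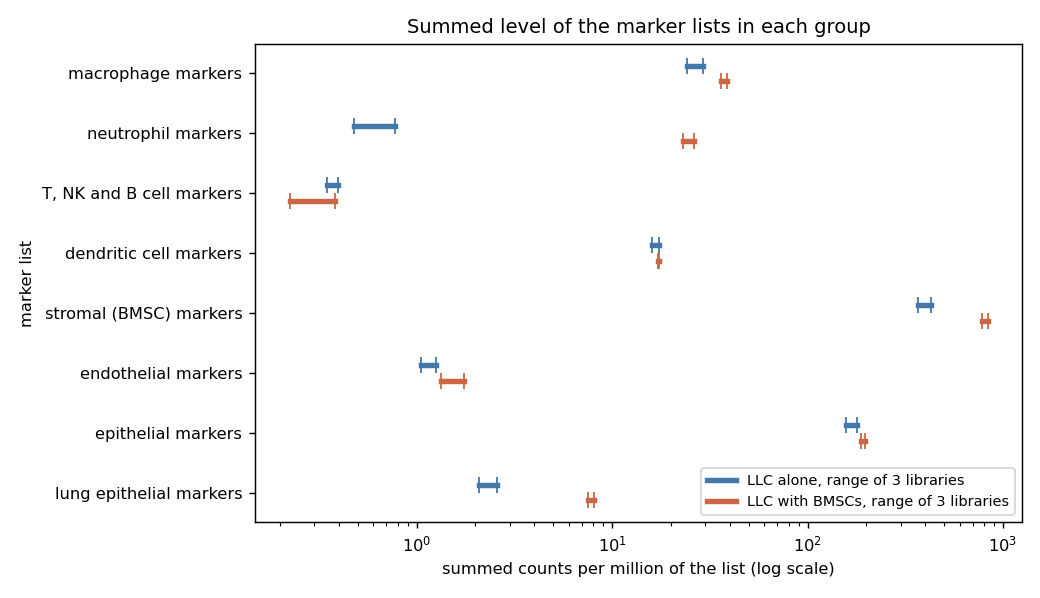
Summed CPM of each marker list (log axis), as the range over the 3 libraries of a group. Neutrophil markers lie at 0.479 to 0.780 in LLC alone and at 23 to 26.1 in LLC with BMSCs, while dendritic cell markers overlap.

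The 2 ligands were close to the floor of detection in LLC alone. Tnf, which encodes the founding cytokine of the family, had 2, 0 and 0 counts in the 3 LLC alone libraries (0.03, 0 and 0 FPKM) and 98, 91 and 72 counts in the libraries with BMSCs (1.39, 1.31 and 1.04 FPKM). Every library with BMSCs held Tnf reads and 2 of the 3 without held none. Scaled to library size, the ratio of the summed counts, 261 against 2, was 122 with a 95% exact interval of 33.5 to 1014, which covers counting error only. The fitted log2 fold change of 6.70 (SE 0.477, edgeR adjusted p 1.75e-05) depends on the prior count, and without LLC alone replicate 1, the only one with reads, it was 9.38. The estimate ± 2 SE runs from 5.74 to 7.65. The counting interval alone already reaches down to 5.07 on the log2 scale, so this SE is too small. Tnf had a mean of 1.96 ± 0.294 CPM (SD, n = 3) in LLC with BMSCs. The summed neutrophil markers, 23 to 26.1 CPM in the same libraries, were also higher than in LLC alone, as were the summed macrophage and stromal markers. Of the 8 macrophage markers tested, 6 were higher, among them Adgre1, Cd68 was lower and Cd14 was not called. These are differences between the groups only. The part of such cells in the result was not tested.

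Tnfsf10 encodes TRAIL, the ligand of the receptor made from Tnfrsf10b. It was read at 0.03, 0.03 and 0.02 FPKM in LLC alone and at 0.38, 0.39 and 0.34 FPKM in LLC with BMSCs. The groups lay far apart, but the level with BMSCs, 0.370 ± 0.0265 FPKM (SD, n = 3), was still the lowest of the 10 genes. The log2 fold change was 3.69 (SE 0.210, edgeR adjusted p 5.68e-06), or 12.9-fold. The neutrophil, macrophage and stromal sums given above were also higher with BMSCs, and their part was not tested.

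Among the receptors, Fas showed the largest difference. FAS is the death receptor that FAS ligand engages on target cells. Its level was 0.53, 0.49 and 0.87 FPKM in LLC alone and 4.89, 5.84 and 5.41 FPKM in LLC with BMSCs, so LLC alone replicate 3 was the highest of its group but still far below every library with BMSCs. The log2 fold change was 3.12 (SE 0.194, edgeR adjusted p 8.98e-06), or 8.67-fold, and it was 3.44 without LLC alone replicate 3. Nearly all of the gene's counts went to transcript NM_007987 (94.2% in LLC alone and 97.0% with BMSCs), and the short transcript NM_001146708 of 555 bases had a mean of 0.443 FPKM with BMSCs. The ligand gene Fasl was read at no more than 0.06 FPKM in any library and did not pass the filter.

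Tnfrsf1b encodes TNFR2, the TNF receptor without a death domain. It had 5.30, 5.15 and 4.91 FPKM in LLC alone and 8.57, 8.42 and 7.78 FPKM in LLC with BMSCs. The groups did not overlap, and the log2 fold change was 0.67 (SE 0.0624, edgeR adjusted p 6.72e-05), or 1.59-fold. Tnfrsf1a, which encodes the death domain receptor TNFR1 and was the most abundant of the 10 genes per length in both groups, had 27.66, 27.13 and 29.96 FPKM in LLC alone and 33.98, 31.49 and 32.35 FPKM with BMSCs. Its groups were also separate, but by 1.53 FPKM only, and the log2 fold change was 0.19 (SE 0.0670, edgeR adjusted p 0.0411). That call was lost with any single library left out other than LLC alone replicate 3, with adjusted p up to 0.128, and with the close pairs of libraries summed (adjusted p 0.221). The ratio of mean FPKM between TNFR1 and TNFR2 genes was 5.52 in LLC alone and 3.95 with BMSCs.

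Tnfrsf10b encodes the only TRAIL receptor with a death domain in the mouse. It had 12.67, 12.30 and 10.68 FPKM in LLC alone and 10.66, 10.45 and 10.26 FPKM in LLC with BMSCs. LLC alone replicate 3 lay next to the highest library with BMSCs, and the other LLC alone libraries lay above both. The log2 fold change was -0.20 (SE 0.0725, edgeR adjusted p 0.0388), which fell short of the threshold with any single library other than LLC alone replicate 3 left out (adjusted p up to 0.132). Without LLC alone replicate 3 it was -0.27 with an adjusted p of 0.000684. The estimated counts of Tnfrsf10b were not whole numbers in 6 of 6 libraries, so part of its reads were shared out by the authors' counting.

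Cd40 did not pass the test. It had 3.17, 3.19 and 3.43 FPKM in LLC alone and 3.26, 3.91 and 3.56 FPKM in LLC with BMSCs, with LLC with BMSCs replicate 1 inside the range of LLC alone. The log2 fold change was 0.11 (SE 0.0984, edgeR adjusted p 0.375), and the estimate ± 2 SE runs from -0.09 to 0.30, so a rise or fall of the size seen in Fas or Birc3 lies outside it. Only with the trend over gene length taken out did Cd40 pass, at 0.27 and an adjusted p of 0.0206. The summed dendritic cell markers overlapped between the groups as well, though 3 of the 7 tested were higher and 2 lower. Of the gene's 4 transcripts, NM_011611 took 71.5% of the counts in LLC alone and 74.6% with BMSCs.

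The genes of the adaptor and both inhibitors were called higher. Birc3 encodes cIAP2, a ubiquitin ligase that holds TNFR1 complexes in the survival and NF-kB mode. It had 0.34, 0.35 and 0.25 FPKM in LLC alone and 5.76, 5.78 and 5.68 FPKM in LLC with BMSCs, and the spread of the latter was 0.922% of their mean. The log2 fold change was 4.39 (SE 0.108, edgeR adjusted p 1.21e-07), or 20.9-fold. A transcript that the authors' pipeline assembled itself, of 6655 bases, took 28.2% of the gene's counts in LLC alone and 46.6% with BMSCs, and NM_007464 took the rest. Counts of Birc3 were not whole in the 3 libraries with BMSCs.

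Traf1 encodes an adaptor that binds TRAF2 and through it the cIAPs. It was read at 0.49, 0.54 and 0.62 FPKM in LLC alone and at 4.93, 4.68 and 4.70 FPKM in LLC with BMSCs. Replicates within each group lay close together, and the log2 fold change was 3.13 (SE 0.112, edgeR adjusted p 6.32e-07), or 8.78-fold. Transcript NM_001326601 took 47.2% of the gene's counts in LLC alone and 59.0% with BMSCs, while NM_009421 was read only in LLC alone replicate 2.

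Tnfaip3 encodes A20, the ubiquitin-editing enzyme that limits NF-kB signals. Its level was 2.67, 2.77 and 2.20 FPKM in LLC alone and 10.02, 8.95 and 9.03 FPKM in LLC with BMSCs, which do not overlap. The log2 fold change was 1.85 (SE 0.0973, edgeR adjusted p 3.92e-06), or 3.61-fold. All reads in LLC alone went to NM_009397, and with BMSCs a further transcript, NM_001166402, took 16.7% of the counts at 1.53, 1.22 and 2.02 FPKM. How the authors' software divides reads between such similar transcripts was not checked.

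**Figure D3:**
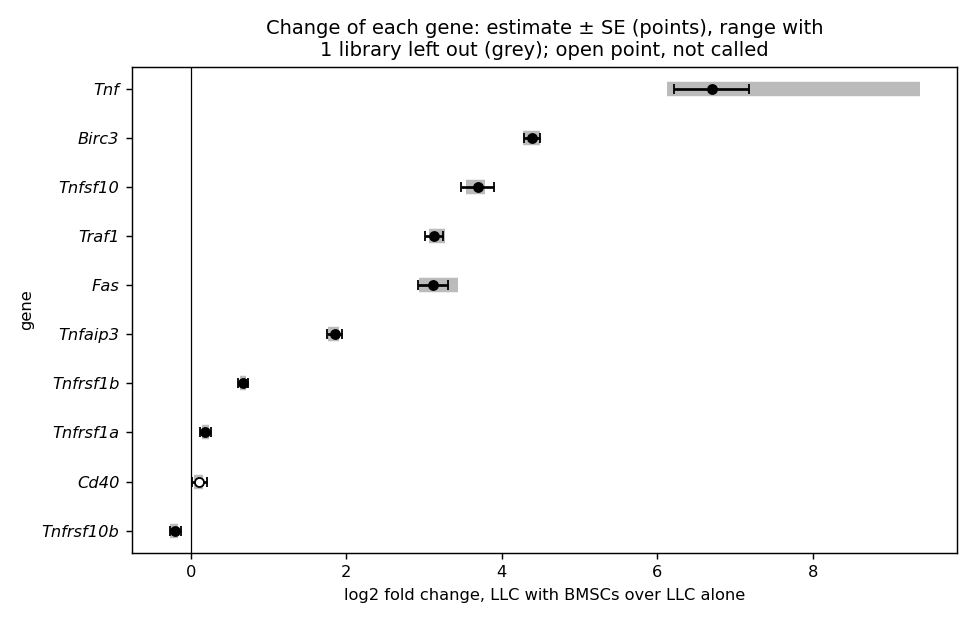
Log2 fold change of each gene, LLC with BMSCs over LLC alone, from edgeR on the estimated counts; points and bars are the estimate ± SE, grey bands span the 6 fits with 1 library left out, and the open point is not called. Tnf has the widest band, 6.13 to 9.38, and Tnfrsf10b, Cd40 and Tnfrsf1a lie near 0. The SE was derived from the test's F statistic and is too small for Tnf.

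The order of the levels, in FPKM and so per length, changed between the groups. In LLC alone the means fell from Tnfrsf1a (28.2) through Tnfrsf10b (11.9), Tnfrsf1b (5.12), Cd40 (3.26) and Tnfaip3 (2.55) to Fas (0.630), Traf1 (0.550), Birc3 (0.313), Tnfsf10 (0.0267) and Tnf (0.0100). Of neighbours in that order, Fas and Traf1 overlapped, as did Tnfsf10 and Tnf. With BMSCs the order was Tnfrsf1a (32.6), Tnfrsf10b (10.5), Tnfaip3 (9.33), Tnfrsf1b (8.26), Birc3 (5.74), Fas (5.38), Traf1 (4.77), Cd40 (3.58), Tnf (1.25) and Tnfsf10 (0.370). Birc3, Fas and Traf1 overlapped their neighbours there. The range over the 10 genes was thus 2825-fold by mean FPKM in LLC alone, where the lowest rests on 2 counts, and 88.1-fold with BMSCs.

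Each gene was also matched to the 1 gene, among 12705 other tested genes with a symbol, with the most similar course over the 6 libraries, measured as the Euclidean distance between log2 CPM values centred on their mean. Tested genes that the authors' pipeline assembled itself carry no symbol and were not searched. Tnf was closest to Pirb (distance 0.457), Tnfsf10 to Dtx3l (0.229), Fas to Isg15 (0.218), Traf1 to Ikbke (0.235) and Birc3 to Ncf1 (0.276). Tnfaip3 was closest to Bnc1 (0.0738), Tnfrsf1b to Ypel2 (0.0693), Cd40 to Chmp1b (0.0594), Tnfrsf1a to Reep4 (0.0316) and Tnfrsf10b to Slc38a2 (0.0251). The distances are smaller where a gene differs little between the groups, so they are not comparable between the 10 genes.

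The rest of the pathway was read from 5 further lists. Of 16 other ligands of the family, 6 could be tested, with 2 higher and 2 lower and a median log2 fold change of -0.05. Tnfsf13b, which encodes the B cell survival factor BAFF, rose by a log2 fold change of 0.37 (SE 0.0880, edgeR adjusted p 0.00710). Tnfsf18, the ligand of the receptor GITR, fell from 2.89 ± 0.323 to 0.103 ± 0.00577 FPKM (SD, n = 3 each), with a log2 fold change of -4.77 and an edgeR adjusted p of 5.82e-07. The other called ligands stayed under 1 FPKM and so outside the naming rule. Tnfsf13 had a log2 fold change of 1.32 (edgeR adjusted p 0.0199) and Lta 1 of -2.62 (0.00118). With at least 10 counts required in every library, 3 of these ligands could be tested, 1 higher and 0 lower. Tnf and Tnfsf10 passed the filter only through the libraries with BMSCs, so their direction cannot be set against that of the other ligands.

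Of 22 other receptors, 12 were tested, with 5 higher and 4 lower and a median of 0.25. Tnfrsf9, the T cell costimulatory receptor 4-1BB, rose from 3.86 ± 0.492 to 28.3 ± 2.42 FPKM (SD, n = 3 each, log2 fold change 2.85, edgeR adjusted p 7.96e-07). Tnfrsf14, the receptor HVEM, rose by 1.57 on the log2 scale, whereas Eda2r, a receptor for an ectodysplasin ligand, and Tnfrsf12a, the receptor of TWEAK, had log2 fold changes of -1.34 and -0.47. The decoy TRAIL receptor genes Tnfrsf22 and Tnfrsf23, named outside the rule with their values known, had 0.24 and 0.63.

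All 30 genes of receptor-proximal signalling were tested, with 18 higher and 4 lower and a median of 0.27, and Traf1, Birc3 and Tnfaip3 all lay above the largest rise of the list. The largest rises were those of Rnf31 (1.32), the catalytic subunit of the linear ubiquitin ligase, and of Tnip1 (1.10), which works with A20. The largest falls were those of Fadd (-0.40), the adaptor of death domain receptors, and Tab2 (-0.31), which links ubiquitin chains to TAK1. Birc2 and Traf2, partners of the 10 genes' products and also named outside the rule, had 6.51 and 15.9 FPKM in LLC alone and 9.46 and 15.0 FPKM with BMSCs. Birc3 thus stood at 0.313 against 6.51 FPKM of its paralogue Birc2 in LLC alone, and at 5.74 against 9.46 FPKM with BMSCs.

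Of 13 genes of the caspase and mitochondrial arm, 12 were tested, with 5 higher, 4 lower and a median of 0.05. The executioner Casp6 and the apoptosome scaffold Apaf1 rose by 1.04 and 0.86 on the log2 scale. Bid, which carries the death receptor signal to mitochondria, and the pore protein gene Bax had log2 fold changes of -1.05 and -0.72.

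The list nearest to the 10 genes was that of 25 NF-kB target genes, of which 24 were tested, with 16 higher and 6 lower and a median of 1.17. Mmp9, a matrix-degrading protease also stored by neutrophils, rose from 0.147 ± 0.0379 to 5.39 ± 0.132 FPKM (SD, n = 3 each, log2 fold change 5.12, edgeR adjusted p 2.43e-07). Bcl2a1b, a survival gene of the BCL2 family, has near-identical copies that make its counts uncertain. It had no reads in LLC alone and was at least 9.88-fold higher with BMSCs, taking 3 counts per library as the floor. It passed the filter only through the libraries with BMSCs, so its direction was set by the filter. With at least 10 counts required in every library, the list had 15 higher and 6 lower of 23 tested. In the other direction, the chemokine gene Ccl20 and the cytokine gene Il6 had log2 fold changes of -4.09 and -1.08. Ccl20 fell from 47.0 ± 3.35 to 2.79 ± 0.206 FPKM (SD, n = 3 each, edgeR adjusted p 1.02e-07). These lists were not tested as sets, and the share of all tested genes called higher, 31.5%, stands beside 33.3%, 41.7%, 60.0%, 41.7% and 66.7% of the tested genes in the lists in the order given.

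**Figure D4:**
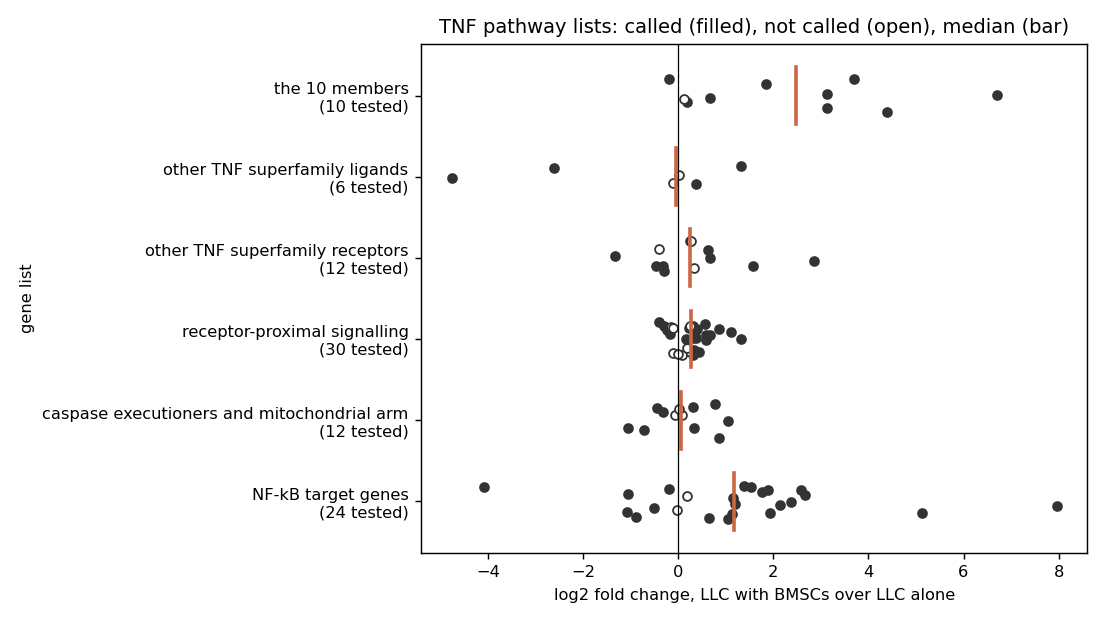
Log2 fold changes (LLC with BMSCs over LLC alone) of the tested genes of the 10 genes and of the 5 further lists; filled points are called, open points are not, and the bar is the list's median. The median lies at 2.48 for the 10 genes, at 1.17 for the NF-kB target genes and between -0.05 and 0.27 for the other 4 lists. The 10 genes include Tnf and Tnfsf10, which passed the filter only through the libraries with BMSCs.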

How the data were processed

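The 6 libraries of sorted RFP-positive LLC cells were made by poly-A RNA sequencing. The labels name an Illumina protocol and the study's methods the BGISEQ-500. The submitters' processing notes name HISAT, StringTie, Cufflinks and GATK and build mm8; their roles and versions were not given in the sources used here. The deposited values are the authors' estimated counts and FPKM (scaled by length and depth) per gene and transcript, with assembled transcripts added.
The members and lists were chosen with earlier results of these data known. Here estimated counts were rounded, filtered with filterByExpr, scaled by TMM and tested with edgeR 4.0.16 (quasi-likelihood, Benjamini-Hochberg over 13353 genes, threshold 0.05), after a check on simulated data. FPKM served for levels; CPM is TMM-scaled. An exact two-sided permutation test of 3 against 3 libraries cannot go below 0.1, so none is quoted. The alternatives used DESeq2 1.42.0, limma 3.58.1, other scalings and filters, no length trend, a replicate block, the close pairs summed and each library left out. R was 4.3.3 and SciPy 1.17.1. Intervals and floors cover counting error only.
From each pathway list, the text names called genes with at least 1 FPKM in 1 group and the 2 largest rises and 2 largest falls, and from each marker list the 2 most abundant and those at 0. Coordinates are those of GRCm38.p6. The files' own build could not be used here, so no coordinate was taken from them.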

Additional observations from a re-analysis of the deposited data

How the results depend on the processing

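With 2 to 3 libraries a group, the calls of Tnf, Tnfsf10, Fas, Tnfrsf1b, Tnfaip3, Traf1 and Birc3 kept their direction and threshold under each of the alternatives that could be fitted (13 to 16 per gene). Tnf and Tnfsf10 gave no value with at least 10 counts in every library, and Tnfsf10 none in limma on FPKM. The sizes moved with the FPKM scale: limma gave Tnf 1.15 and 3.62, Fas 1.97 and 2.94, Traf1 1.90 and 2.91 and Birc3 2.36 and 3.83 with pseudocounts 1 and 0.1. The 2 smallest called differences kept their direction throughout but their call in only 6 of 16 alternatives for Tnfrsf10b and 8 of 16 for Tnfrsf1a. Calls were kept with the length trend removed (Tnfrsf10b -0.23, adjusted p 0.00564; Tnfrsf1a 0.27, 0.00091), in DESeq2 (0.0393 and 0.0389) and with at least 10 counts in every library (0.0453 and 0.0332), for Tnfrsf10b with upper-quartile scaling (-0.23, 0.0155), and for Tnfrsf1a in limma (0.20 and 0.21, 0.0183 and 0.0185). Where calls were lost, Tnfrsf10b was -0.18 (adjusted p 0.0592) without TMM, -0.20 (0.0552) with no filter, -0.17 (0.0742) and -0.18 (0.0733) in limma with pseudocounts 1 and 0.1, -0.17 (0.254) with the close pairs summed, and -0.27 to -0.16 with 1 library left out. Tnfrsf1a was 0.16 (0.0940) with upper-quartile scaling, 0.18 (0.221) with the close pairs summed, and 0.15 to 0.24 with 1 library left out. Cd40 reached 0.27 (0.0206) with the length trend removed. The cause was not tested.

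The count of the 10 genes called lower went from 1 to 0 without TMM, with no filter, in limma with either pseudocount, with a log2 fold change of at least 1 and with the close pairs summed, and was 0 to 1 with 1 library left out. With a log2 fold change of at least 1, fewer genes can pass by construction: 1155 of all genes were higher and 957 lower. The counts were then 1 higher for other ligands, 2 higher and 1 lower for other receptors, 2 higher and 0 lower for receptor-proximal signalling, 1 higher and 1 lower for the caspase list and 3 lower for NF-kB targets. Other ligands had 1 higher and 0 lower with at least 10 counts in every library (3 tested), 1 higher and 1 lower in limma with either pseudocount (4 tested), and 0 higher with the close pairs summed. With those pairs summed, other receptors had 2 lower and receptor-proximal signalling 1 lower. With 1 library left out, other ligands called higher were 1 to 2, other receptors called lower 2 to 4 and receptor-proximal genes called lower 1 to 5.

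The replicate numbers did not pair the libraries: the correlations of deviations between same-numbered libraries were 0.0762, -0.106 and 0.0572, and 1 of 3 numbers matched itself best. A replicate block changed the genes called higher from 4210 to 4161 and those called lower from 4183 to 4058, and took Tnfrsf1a (0.19) to an adjusted p of 0.0639. Low depth of Tnf and Tnfsf10 in LLC alone (at most 2 and 7.01 counts) limits the precision of their fold changes.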
